A study of Mus musculus with 26 samples.

Results

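The kinesin motor genes of mouse testes were examined in total RNA of knock-in mice that carry binding sites for a pachytene piRNA. The members were all protein-coding genes of the deposited table whose symbol is *Kif* followed by a number and, where there is one, a letter, which gave 39 of the 51124 genes listed. By known function, 13 were placed with spindle and cytokinesis kinesins, 11 with flagellar, ciliary and centriolar kinesins and 15 with transport and other cytoplasmic kinesins. The libraries came from whole testes of adult mice of 3 genotypes, with 2 libraries from 2 mice for each. N1 and N2 were wild type. N3 and N4 were from the *10xPerf* line, in which the 3′ UTR of *Ythdc2* holds 10 sites that pair fully with piR-A, an abundant piRNA. N5 and N6 were from the *10xBulge* line, in which the 10 sites in the same place do not pair with nucleotides 10 and 11 of piR-A. Both insertions were founded in embryos of the B6D2F1/J hybrid and the lines were kept homozygous, so each knock-in comparison is between mice of separate lines. The 20 immunoprecipitation samples of the series are not analysed here.

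Kinesins are motors that use ATP to move along microtubules or to shorten them. In dividing germ cells they build the spindle, align and separate the chromosomes and close the cleavage furrow, while others carry material along cytoplasmic microtubules or into the sperm tail as it grows. Spermatids, the haploid germ cells that form after meiosis, no longer divide but reshape the nucleus with a microtubule manchette and assemble a flagellum. *Kif17* is known in this tissue as the partner of ACT, the product of *Fhl5*, a coactivator of the transcription factor CREM.

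Short promoter stretches are shown here as examples, for some of the kinesin genes that passed the threshold in a comparison given further on and whose window holds 1 of the motifs, and for *Kif11*, which did not pass. RefSeq windows of 250 bases before to 50 bases after a gene's start on GRCm38.p6 were given for 31 of the 39 genes (12 spindle, 9 flagellar and 10 transport). Each stretch is written 5′ to 3′ on the strand of its gene, with the motif in capitals. The cAMP response element (CRE, TGACGTCA, bound by CREM and its relatives) begins 86 bases before the start of *Kif17*, in an intron of a longer *Kif17* transcript, and 26 bases before the start of *Kif5c*, in intergenic sequence. *Kif2b* holds only the short form of the site (TGACG), 62 bases before its start in intergenic sequence.
*Kif17*, CRE, chr4:138262155-138262182, plus strand: ttccgtcctgTGACGTCAcggaggttgc
*Kif5c*, CRE, chr2:49619250-49619277, plus strand: atctctgcagTGACGTCAccgtgccgag
*Kif2b*, short CRE, chr11:91577603-91577627, minus strand: ggtccctttgTGACGaaaggaccct
The X-box core (GTTGCC, part of the motif of RFX factors, which are known for ciliary genes) begins 73 bases before the start of *Kif17*, in the same intron and overlapping the stretch above, and 27 bases before the start of *Kif9*, in an annotated *Kif9* exon.
*Kif17*, X-box core, chr4:138262168-138262193, plus strand: cgtcacggagGTTGCCcagcaacggc
*Kif9*, X-box core, chr9:110476957-110476982, plus strand: caggcttcctGTTGCCatggcgactg
The cell-cycle homology region (CHR, TTTGAA, or TTCAAA on the other strand, known from genes expressed in dividing cells) begins 103 bases before the start of *Kif2c* (a *Kif2c* intron), 17 before that of *Kif22* (a *Kif22* exon), 73 before that of the flagellar *Kif27* (a *Kif27* intron, with further matches upstream) and 19 before that of *Kif11* (intergenic).
*Kif2c*, CHR, chr4:117178860-117178885, minus strand: aggctgctctTTCAAAcctgagtaat
*Kif22*, CHR, chr7:127042422-127042447, minus strand: gccccggtaaTTCAAAagagagaagc
*Kif27*, CHR, chr13:58355005-58355030, minus strand: atggctctgcTTTGAAacatgaaagg
*Kif11*, CHR, chr19:37376353-37376378, plus strand: gtctccatttTTCAAAattgaggcgc

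Both strands of every window were searched. The CHR (TTTGAA) was found in 12 of the 31 *Kif* genes, against 20.2% of the 27025 genes with a window. Of the 12, 9 were spindle kinesins, 1 flagellar and 2 transport. A variant of it (TTCGAA) was found in 1 of 31, the flagellar *Kif24*, against 1.80% of all genes. The X-box core was found in 10 of 31, of which 5 were flagellar, 3 spindle and 2 transport, against 14.1% of all genes. The spindle kinesin *Kif18a*, whose stretch is not shown, is among them. The full CRE was found in 3 of 31 (*Kif17*, *Kif5c* and, after its start, *Kif18a*) against 2.03%, and its short form, which every full site contains, in 14 of 31 against 23.0%. Other common elements were the GC box (GGGCGG), in 21 of 31 against 38.2%, and CCAAT, in 14 of 31 against 41.1%. The cores of the motif of A-MYB, a factor of pachytene spermatocytes, were in 2 of 31 (AACTGTC) and 0 of 31 (AACCGTC), against 3.96% and 1.08% of all genes. These are matches of letters and were not tested against binding.

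The deposited values are normalized read counts per gene. Read totals were estimated by taking the most frequent value below 3 in a library as the worth of 1 read. By this estimate the libraries held roughly 41.1 to 61.6 M reads assigned to genes (M for 1e6). On the same basis, 3 reads are worth 2.73 to 3.63 normalized counts. Across genes, the log2 values of libraries of the same genotype correlated with Pearson's r between 0.951 and 0.958. *Ythdc2*, the gene that carries the sites, read 827 and 2412 normalized counts in the wild-type libraries, 1334 and 1136 in those of *10xPerf* and 1202 and 2458 in those of *10xBulge*, which overlap and, since the insertion does not remove the gene, check no label. Wild-type libraries differed from each other among the kinesins: 28 of the 37 genes tested were lower in N1 than in N2, the widest gap was that of *Kif1a* (1.63 higher in N1 on the log2 scale), and the difference varied with the GC content of the transcript (Spearman's rho over the 37 genes was 0.67 between N1 and N2, -0.37 between N3 and N4 and 0.79 between N5 and N6). Over the 23614 genes tested with known GC content, rho was 0.44, -0.28 and 0.45 for the same pairs. Of those genes, 11788 were lower in N1 than in N2. The part of these differences in the results was not tested beyond the alternatives given with them.

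Of the 39 genes, 38 were above 0 in at least 1 library and 37 reached 10 normalized counts in 2 or more libraries, which was required for testing. *Kif12* was listed at 0 in all 6 libraries. *Kif28* had between 0 and 11.3 normalized counts, with only N4 above 10. All 13 spindle and all 11 flagellar kinesins were tested, and 13 of the 15 transport kinesins. No kinesin gene is listed in the table as having a sequence identical to another gene.

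Per kilobase of the longest annotated transcript, *Kif17* and *Kif2b* led the family in wild-type testes. *Kif17* stood at 8442 and 4619 normalized counts per kb in N1 and N2, and *Kif2b*, which encodes a microtubule-shortening kinesin of the same family as *Kif2a* and *Kif2c*, at 5667 and 7376. Next by mean were *Kif9*, a kinesin of the sperm axoneme, at 1798 and 3967, and *Kif2c*, at 1901 and 3369. The ranges of *Kif17* and *Kif2b* overlap, as do those of *Kif9* and *Kif2c*, so their order within each pair is not resolved. *Kif3b*, a motor subunit of the heterotrimeric kinesin of intraflagellar transport, had 945.5 and 2051 per kb and ranked 5. In *10xBulge* testes *Kif3b* came first, at 1542 and 1148 per kb, beside *Kif9* at 1747 and 923 and *Kif20a*, a kinesin of cytokinesis, at 1502 and 941. These 3 ranges overlap. *Kif2b* ranked 22 there and *Kif17* 26.

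The summed level of the 39 genes was 28575 to 39947 normalized counts per kb in the wild-type and *10xPerf* libraries, 14309 in N5 and 10549 in N6, and its make-up differed too. *Kif17* and *Kif2b* together supplied 49.4% and 35.3% of the sum in N1 and N2, 37.8% and 37.6% in N3 and N4, and 2.77% and 1.48% in N5 and N6. The spindle kinesins other than *Kif2b* and *Kif2c* supplied 15.3% to 18.9% in the 4 wild-type and *10xPerf* libraries and 34.8% and 39.0% in *10xBulge*. Transport kinesins supplied 7.66% to 9.28% and then 23.3% and 22.6%. The libraries of *10xBulge* were outside the range of the other 4 for each of these shares. All spindle kinesins together, with *Kif2b* and *Kif2c*, supplied 41.8% to 55.1% in those 4 libraries. They supplied 40.7% in N5 and 43.2% in N6, so N6 lay within the range of the other 4. Shares within a library are tied to each other, so a share can rise because another fell.

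**Figure D1:**
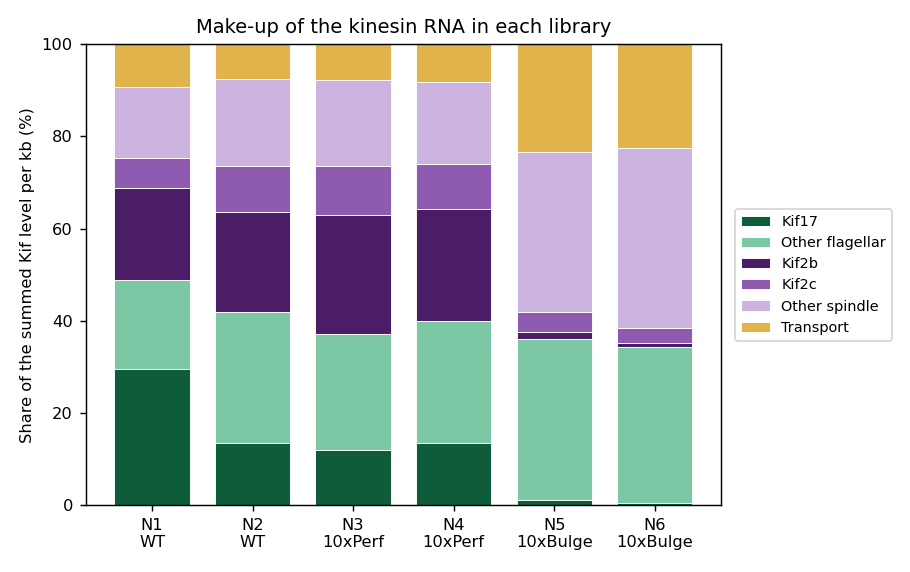
Stacked bars give, for each of the 6 libraries (x axis, with genotype), the share of the summed kinesin level per kb in percent (y axis) held by *Kif17*, the other flagellar kinesins, *Kif2b*, *Kif2c*, the other spindle kinesins and the transport kinesins. *Kif17* and *Kif2b* hold 35.3% to 49.4% of the bar in wild type and *10xPerf* and 1.48% to 2.77% in *10xBulge*.

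To ask which kinesin genes differed in *10xBulge* testes, log2(normalized count + 1) was fitted with limma over all 6 libraries and p-values were adjusted over the 23782 genes tested by the Benjamini-Hochberg method, with 0.1 as the threshold. Log2 fold changes are given with their standard errors, and on this scale the changes of low genes are understated. Against wild type, 8 of the 37 kinesin genes passed (21.6%), 7 of them lower and 1 higher, where 34.4% of all genes tested passed, 23.0% lower and 11.4% higher. The libraries of both genotypes did not overlap for 18 of the 37 (48.6%), against 62.1% of all genes tested. Both shares were below those of all genes, a gap that was not tested. The counts of kinesin genes that passed varied with the processing, as given further on. In whole-tissue RNA, fewer cells of a type and less RNA per cell cannot be told apart. In the same libraries 13 of 14 spermatid marker genes were lower as well (median log2 fold change of -6.99), and their part in the kinesin results was not tested.

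Among the spindle kinesins, 2 of 13 fell and 1 rose in *10xBulge*, where 23.0% of all genes tested were lower and 11.4% higher. Both that fell belong to the microtubule-shortening family. *Kif2b* read 12716 and 16551 normalized counts in the wild-type libraries, 23081 and 20634 in those of *10xPerf* and 508 and 224 in those of *10xBulge*. Every *10xBulge* library was below every other, and the gene fell by 5.42 ± 0.47 on the log2 scale against wild type (adjusted p = 3.24e-05, limma). *Kif2c*, which corrects the attachment of chromosomes to the spindle, read 5404 and 9575 in the wild-type libraries, 12069 and 10645 in those of *10xPerf* and 1754 and 967 in those of *10xBulge*. Again the *10xBulge* libraries stood apart below the rest, and the gene fell by 2.46 ± 0.46 (adjusted p = 0.00379). *Kif2a*, the family member with the widest known expression, read 5365 and 10326 in the wild-type libraries, 11805 and 9775 in those of *10xPerf* and 4313 and 4527 in those of *10xBulge*. Its log2 fold change against wild type was -0.75 ± 0.44 and missed the threshold (adjusted p = 0.237), although the libraries did not overlap.

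*Kif22*, a chromokinesin that binds chromosome arms, was the spindle kinesin that rose. It read 524 and 644 normalized counts in the wild-type libraries, 1304 and 2232 in those of *10xPerf* and 3015 and 934 in those of *10xBulge*. Both knock-in lines were above wild type and overlapped each other, with the 2 *10xBulge* libraries more than 3-fold apart. Against wild type its log2 fold change was 1.53 ± 0.57 (adjusted p = 0.0807), and the call was lost on leaving out any 1 of N1, N2, N3, N4 or N5 (log2 fold changes of 0.69 to 2.37 over the 6 such fits). The median log2 fold change of the 13 spindle kinesins was -0.31, and that of the 11 other than *Kif2b* and *Kif2c* was also -0.31, where the median of all genes tested was -0.03. *Kif11*, the motor that pushes the spindle poles apart, had 802 and 1786 in the wild-type libraries and 1028 and 1706 in those of *10xBulge* and did not pass (log2 fold change of 0.15 ± 0.48, adjusted p = 0.856). *Kif23*, a motor of the central spindle, had 820.4 and 1538 against 960.1 and 1118 (-0.12 ± 0.43, adjusted p = 0.871). The 95% confidence interval of the log2 fold change ran from -0.95 to 1.24 for *Kif11* and from -1.08 to 0.85 for *Kif23*. A 2-fold rise of *Kif11* and a 2-fold fall of *Kif23* thus lay within these intervals.

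Among the flagellar, ciliary and centriolar kinesins, *Kif17* and *Kif27* fell in *10xBulge* and 0 of 11 rose by limma, with 1 (*Kif3c*) higher at an unadjusted p under 0.05. The 2 that fell are 18.2% of the 11, where 23.0% of all genes tested were lower and 11.4% higher. *Kif17* read 29151 and 15951 normalized counts in the wild-type libraries, 16590.0 and 17839.9 in those of *10xPerf* and 587 and 194 in those of *10xBulge*. Both *10xBulge* libraries were far below the other 4, and the gene fell by 6.0 ± 0.56 (adjusted p = 5.15e-05). *Kif27*, a kinesin of motile cilia related to *Kif7*, read 5596 and 9093 in the wild-type libraries, 12096 and 9923 in those of *10xPerf* and 882 and 1194 in those of *10xBulge*. The *10xBulge* libraries were again below all others, and the gene fell by 2.80 ± 0.42 (adjusted p = 0.000960).

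Other flagellar kinesins did not pass against wild type. *Kif9* read 5724 and 12631 normalized counts in the wild-type libraries, 12084 and 13915 in those of *10xPerf* and 5562 and 2937 in those of *10xBulge*. Its *10xBulge* libraries were the lowest but N5 lay close to N1, and the log2 fold change was -1.07 ± 0.51 (adjusted p = 0.154). The gene passed without N5, with upper-quartile scaling and with the GC trend removed. *Kif3c*, a partner of *Kif3a* best known from neurons, had 138 and 182 in the wild-type libraries against 587 and 243 in those of *10xBulge*, and its difference of 1.25 ± 0.50 missed the threshold narrowly (adjusted p = 0.102). The core subunits *Kif3a* (log2 fold change of -0.35 ± 0.40) and *Kif3b* (-0.07 ± 0.47) had overlapping libraries. *Kif24*, which restrains the formation of cilia at the centriole, had between 2307 and 3062 in all 6 libraries and a log2 fold change of 0.09 ± 0.38. The median of the 11 genes was -0.35.

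Of the 13 transport kinesins tested, 3 fell in *10xBulge*, a share near the 23.0% of all genes tested that were lower, and 0 rose by limma. At an unadjusted p under 0.05, 4 were lower (with *Kif1a*) and 0 higher. *Kif5c*, a heavy chain of conventional kinesin best known from neurons, read 500.4 and 459.9 normalized counts in the wild-type libraries, 2118 and 1973 in those of *10xPerf* and 113 and 176 in those of *10xBulge*. The genotypes formed 3 separate levels, and against wild type *10xBulge* fell by 1.76 ± 0.40 (adjusted p = 0.0116). *Kif26b*, an atypical kinesin with a divergent motor domain, read 272 and 140.1 in the wild-type libraries, 196 and 253 in those of *10xPerf* and 54.4 and 22.6 in those of *10xBulge*. The *10xBulge* libraries were the lowest, and the gene fell by 2.44 ± 0.56 (adjusted p = 0.0118). *Kif21b*, a kinesin that slows microtubule growth, read 4281 and 2845 in the wild-type libraries, 4395 and 4293 in those of *10xPerf* and 1908 and 667 in those of *10xBulge*, without overlap. It fell by 1.63 ± 0.53 (adjusted p = 0.050), and the call was lost on leaving out any 1 of N1, N2, N3, N4 or N6 (-2.39 to -0.87). For *Kif26b* the call was lost only without N1 (adjusted p of 0.138, the highest over the 6 such fits).

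The remaining transport kinesins had log2 fold changes against wild type between -1.44 (*Kif1a*, adjusted p = 0.111) and 0.99 (*Kif13b*). *Kif1a*, a motor of vesicle precursors, had 5134 in N1 and 1662 in N2, so the wild-type libraries differed more from each other than N2 differed from either *10xPerf* library (1773 and 1157). The ubiquitous heavy chain *Kif5b* had 1484 and 2580.4 in the wild-type libraries and 2189.6 and 3690.1 in those of *10xBulge*, which overlap. The median of the 13 genes was 0.17, with 8 above 0 and 5 below.

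**Figure D2:**
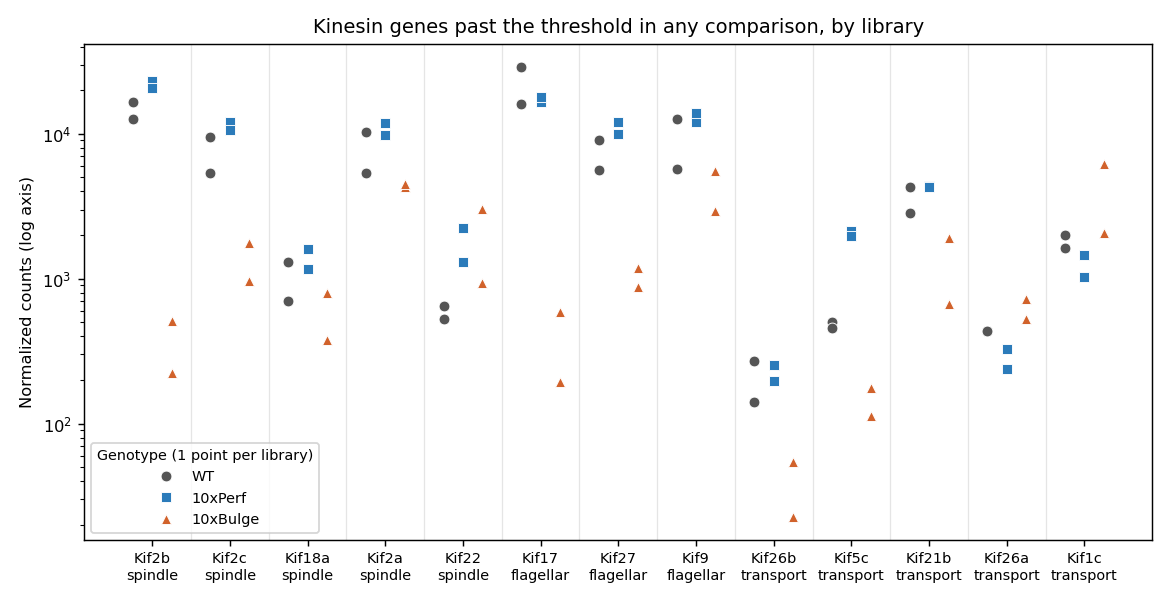
Normalized counts (y axis, log scale) of the 13 kinesin genes that passed the threshold in at least 1 comparison, 1 point per library, with circles for wild type, squares for *10xPerf* and triangles for *10xBulge*. The *10xBulge* triangles lie far below the other points for *Kif2b* (508 and 224) and *Kif17* (587 and 194), and *Kif5c* is at a separate level in each genotype.

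Set against *10xPerf*, the other line with 10 inserted sites, 12 of the 37 kinesin genes passed in *10xBulge* (32.4%), where 37.0% of all genes tested passed. Of these 10 were lower, against 24.1% of all genes, and 2 higher, against 12.9%. The libraries did not overlap for 24 of the 37 (64.9%), against 66.1% of all genes. The *10xBulge* libraries are shared with the comparison above, so the results of both comparisons are not independent. *Kif2b* fell by 6.01 ± 0.47 (adjusted p = 1.72e-05). *Kif17* fell by 5.67 ± 0.56 (adjusted p = 6.81e-05) and *Kif5c* fell by 3.85 ± 0.40 (adjusted p = 9.51e-05). *Kif27* (-3.41 ± 0.42), *Kif2c* (-3.12 ± 0.46), *Kif26b* (-2.63 ± 0.56) and *Kif21b* (-1.94 ± 0.53) also fell, with adjusted p-values of 0.000251 to 0.0234.

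*Kif9*, *Kif2a* and *Kif18a* passed here and not against wild type. The difference between both comparisons equals *10xPerf* against wild type, where these genes did not pass. Log2 fold changes there were 0.61 ± 0.51 (*Kif9*), 0.53 ± 0.44 (*Kif2a*) and 0.52 ± 0.50 (*Kif18a*), with adjusted p of 0.853 to 0.856 in limma. Between *10xBulge* and *10xPerf*, *Kif9* fell by 1.68 ± 0.51 (adjusted p = 0.0366) and *Kif2a* by 1.28 ± 0.44 (adjusted p = 0.0560). *Kif18a*, a kinesin that damps chromosome movement on the metaphase plate, read 704 and 1295 normalized counts in the wild-type libraries, 1602 and 1172 in those of *10xPerf* and 379 and 799 in those of *10xBulge*. Its *10xBulge* libraries lay below both *10xPerf* libraries but on both sides of N1, and it fell by 1.32 ± 0.50 against *10xPerf* (adjusted p = 0.0808). Leaving out N3 or N4 removed the calls of *Kif9*, *Kif2a*, *Kif18a* and *Kif21b*, which left 6 genes lower. Leaving out N5 removed those of *Kif2a* and *Kif18a*, and leaving out N6 removed that of *Kif9*.

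The 2 kinesin genes higher in *10xBulge* than in *10xPerf* were both transport kinesins. *Kif1c*, a motor of vesicle transport, read 2002 and 1637 normalized counts in the wild-type libraries, 1030.0 and 1468 in those of *10xPerf* and 6217 and 2074 in those of *10xBulge*. Library N5 was 3-fold above N6, and N6 was near N1. The gene rose by 1.55 ± 0.54 (adjusted p = 0.0598) and was called in 1 of the 6 fits that leave out a library, the one without N6. *Kif26a*, an atypical kinesin related to *Kif26b*, read 433 and 435 in the wild-type libraries, 239.7 and 328 in those of *10xPerf* and 723 and 530.1 in those of *10xBulge*. Its *10xBulge* libraries were the highest and its *10xPerf* libraries the lowest, and it rose by 1.14 ± 0.41 (adjusted p = 0.0645), a call lost without N3, N4 or N5. The paralogue *Kif26b* moved the opposite way in the same libraries.

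Between *10xPerf* and wild type 1 of 37 kinesin genes passed (2.70%), where 0.959% of all genes tested passed, 0.467% higher and 0.492% lower. That gene was *Kif5c*, at 2118 and 1973 normalized counts against 500.4 and 459.9 in wild type, a rise of 2.09 ± 0.40 (adjusted p = 0.0730). All 4 values of the fits without a wild-type or a *10xPerf* library kept the direction but missed the threshold, and over the 6 such fits the log2 fold change was 2.03 to 2.15. At an unadjusted p under 0.05, limma gave 1 spindle, 0 flagellar and 2 transport kinesins, against 6.09% of all genes tested. The other transport kinesin was *Kif5a*, a neuronal heavy chain, with 152 and 235 in the wild-type libraries, 615 and 567 in those of *10xPerf* and 429 and 221 in those of *10xBulge*. Its *10xPerf* libraries were above all others, and the difference of 1.64 ± 0.47 did not pass after adjustment (adjusted p = 0.331). *Kif22* had a difference of 1.55 ± 0.57 (adjusted p = 0.649).

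The genes with the largest changes in *10xBulge* did not pass in *10xPerf* against the same wild-type libraries. *Kif17* had a log2 fold change of -0.33 ± 0.56 there, *Kif2b* of 0.59 ± 0.47, *Kif2c* of 0.66 ± 0.46 and *Kif27* of 0.62 ± 0.42, each with an adjusted p of 0.853 or more. The direct comparison of both lines, given above, is the test of that difference. Of the spindle kinesins, 12 of 13 had a log2 fold change above 0 in *10xPerf*, with a median of 0.59, against 0.02 for all genes tested. Without N1 that median was 0.081. The median was 0.11 for the flagellar and 0.21 for the transport kinesins. Libraries of *10xPerf* and wild type did not overlap for 15 of 37 genes (40.5%), against 40.0% of all genes.

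**Figure D3:**
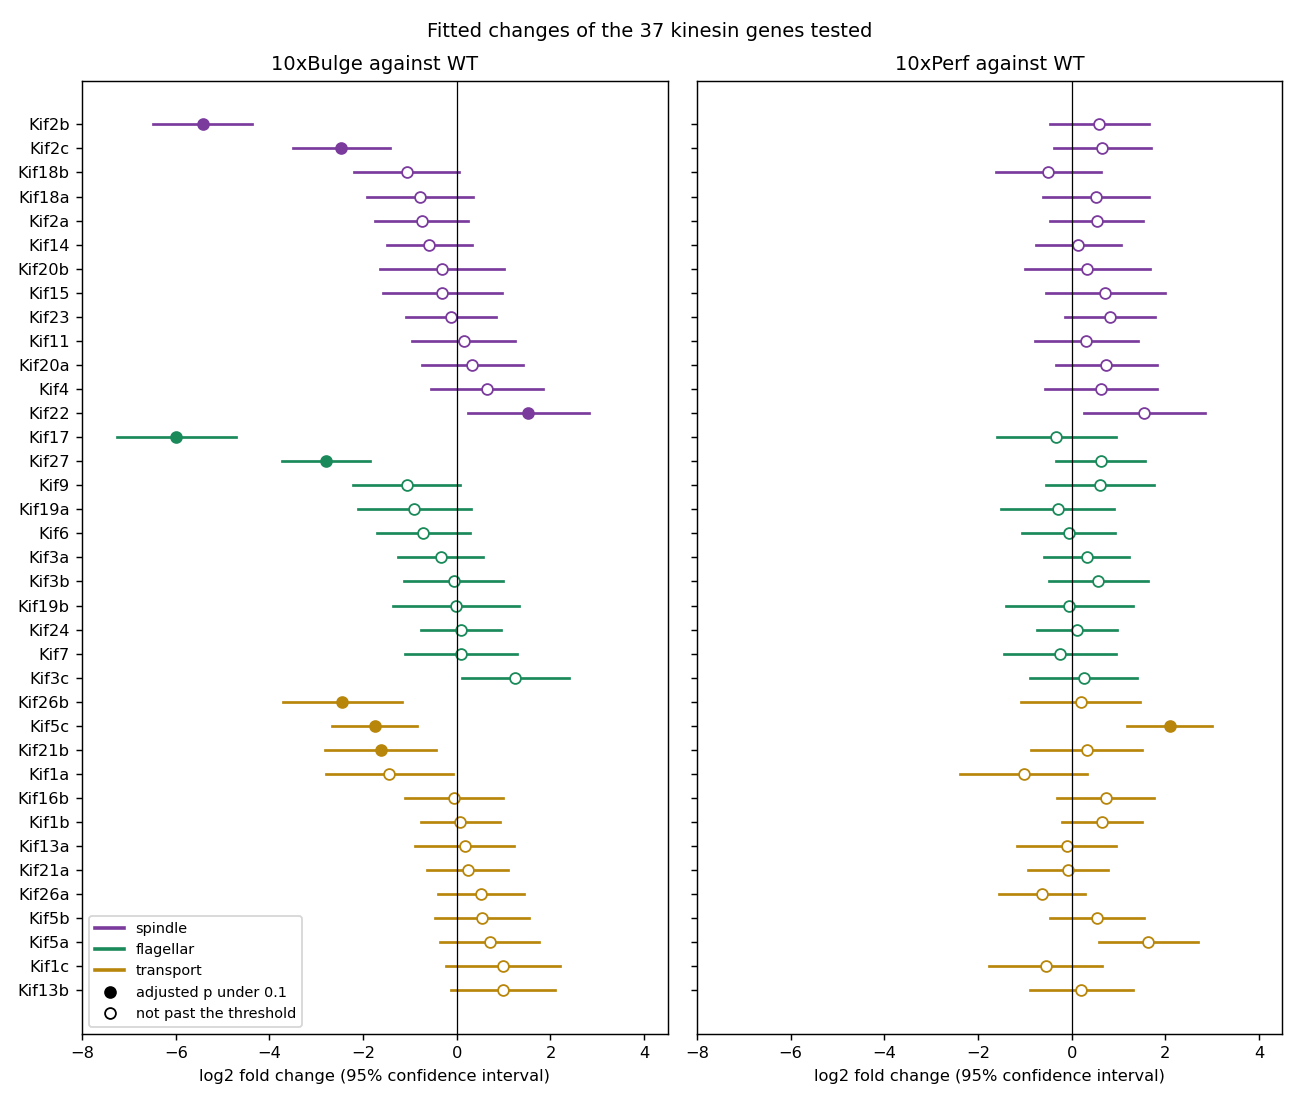
Log2 fold changes (x axis) with 95% confidence intervals for the 37 kinesin genes tested, ordered within spindle (purple), flagellar (green) and transport (ochre) kinesins, in *10xBulge* against wild type on the left and *10xPerf* against wild type on the right. Filled points passed an adjusted p under 0.1: 8 genes on the left, led by *Kif17* (-6.0) and *Kif2b* (-5.42), and *Kif5c* (2.09) on the right.

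Ratios between relatives within a library do not depend on how the libraries were scaled. The log2 ratio of *Kif2b* to *Kif2a* was 1.25 and 0.68 in the wild-type libraries, 0.97 and 1.08 in those of *10xPerf* and -3.09 and -4.34 in those of *10xBulge*. That of *Kif2c* to *Kif2a* was 0.01 and -0.11, then 0.03 and 0.12, then -1.30 and -2.23. Within the microtubule-shortening family, the 3 genes thus changed unequally. *Kif17*, an accessory motor of intraflagellar transport, had a log2 ratio to *Kif3b* of 2.45 and 0.46 in the wild-type libraries, 0.49 and 0.64 in those of *10xPerf* and -3.89 and -5.06 in those of *10xBulge*. The ratio of *Kif3a* to *Kif3b*, the subunits of the same motor, stayed between -2.62 and -1.98 in all 6 libraries with overlap of all genotypes. Among conventional kinesins, the log2 ratio of *Kif5c* to *Kif5b* was -1.57 and -2.49 in the wild-type libraries, -0.42 and -0.56 in those of *10xPerf* and -4.27 and -4.39 in those of *10xBulge*, without overlap.

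**Figure D4:**
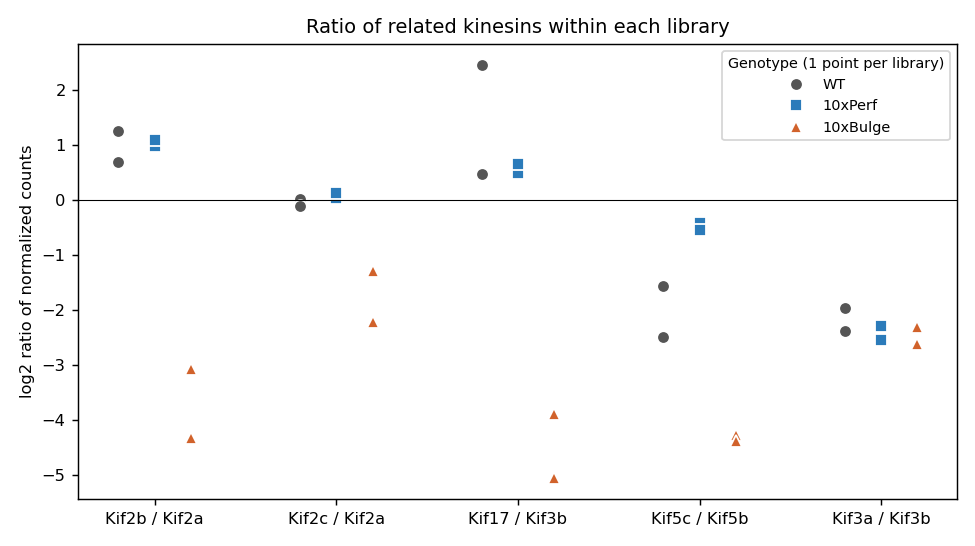
Log2 ratios of normalized counts (y axis) for 5 pairs of related kinesins (x axis), 1 point per library, with circles for wild type, squares for *10xPerf* and triangles for *10xBulge*. *Kif2b* to *Kif2a*, *Kif2c* to *Kif2a*, *Kif17* to *Kif3b* and *Kif5c* to *Kif5b* are lowest in *10xBulge*, while *Kif3a* to *Kif3b* overlaps in all 3 genotypes.

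Kinesin partners were read from lists of genes by function. Of 17 light chains, accessory subunits and cargo adaptors, 4 fell in *10xBulge* against wild type, near the 23.0% of all genes tested, and 0 rose by limma. At an unadjusted p under 0.05, 5 were lower and 0 higher. *Fhl5*, which encodes the *Kif17* partner ACT, read 4234 and 6097 normalized counts in the wild-type libraries, 5719 and 7473 in those of *10xPerf* and 44.7 and 58.6 in those of *10xBulge*, and fell by 6.60 ± 0.40 (adjusted p = 7.15e-06). *Crem*, the factor that ACT activates, fell by 1.84 ± 0.43 (adjusted p = 0.0119), from 3561 and 6306 to 1209 and 1449. *Klc3*, a light chain known from sperm tails, had 2214 and 1267 in the wild-type libraries and 66.1 and 40.1 in those of *10xBulge* (a difference of -5.0 ± 0.46, adjusted p = 4.38e-05). *Kifap3*, the non-motor subunit that binds *Kif3a* and *Kif3b*, fell by 1.15 ± 0.44 (adjusted p = 0.0845). Against *10xPerf*, 4 of the 17 were lower and 1 higher, which was *Rhot2*, a mitochondrial adaptor (1.30 ± 0.48, adjusted p = 0.0747). Of all genes tested, 24.1% were lower and 12.9% higher in that comparison. Between *10xPerf* and wild type 0 of the 17 passed in limma, and 0 at an unadjusted p under 0.05.

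Mitotic and meiotic partners of the spindle kinesins were read in the same way. Of 21 genes for Aurora kinases, the chromosomal passenger complex, the spindle checkpoint and cytokinesis, 1 rose and 0 fell against wild type by limma, with the same counts at an unadjusted p under 0.05, where 11.4% of all genes tested were higher and 23.0% lower. The gene was *Mad2l1*, a spindle checkpoint gene, with 587 and 607 normalized counts in the wild-type libraries against 1164 and 3572 in those of *10xBulge* (1.77 ± 0.56, adjusted p = 0.0470). Against *10xPerf* 0 of the 21 passed in limma, where 37.0% of all genes tested passed, with 1 lower at an unadjusted p under 0.05. The median log2 fold change of the list against wild type was 0.11. Among 6 kinesin heavy chains whose symbols do not follow the *Kif* rule, *Stard9*, a kinesin of the centrosome, fell by 1.71 ± 0.43 (adjusted p = 0.0178) and *Kifc3*, a motor that walks to the minus end, by 1.95 ± 0.66 (adjusted p = 0.0577). *Cenpe*, the kinetochore kinesin, read 1893 and 3122 in the wild-type libraries, 5364 and 3289 in those of *10xPerf* and 1155 and 2093 in those of *10xBulge*. It fell against *10xPerf* (1.43 ± 0.48 lower on the log2 scale, adjusted p = 0.0519), and its log2 fold change against wild type was -0.64 ± 0.48.

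Of 18 genes for subunits of cytoplasmic dynein, the motor that moves opposite to most kinesins, and of its cofactor dynactin, 3 were higher and 1 lower in *10xBulge* than in wild type, and these 4 encode dynein subunits. Of all genes tested, 11.4% were higher and 23.0% lower. *Dync1li1* rose by 1.60 ± 0.43 (adjusted p = 0.0244), with 529.7 and 818 normalized counts in the wild-type libraries and 2526 and 1583 in those of *10xBulge*. *Dync1i1* rose by 1.55 ± 0.46 (adjusted p = 0.0357) and *Dynlrb1* by 1.12 ± 0.44 (adjusted p = 0.0932). Its paralogue *Dynlrb2*, known from ciliated cells and testis, fell by 1.19 ± 0.43 (adjusted p = 0.0737). The median over the 18 dynein and dynactin genes was 0.39.

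Markers of several cell types moved with these results. Against wild type, 23.0% of all genes tested were lower in *10xBulge* and 11.4% higher. Of 14 spermatid genes, 13 fell in *10xBulge* against wild type, with a median of -6.99, and their summed level was 592765 to 817657 normalized counts in wild type and *10xPerf* and 5297 and 3041 in *10xBulge*. None of the 14 was at 0 in any library. Of 18 spermatocyte genes 1 fell, with a median of 0.10 and sums of 75873 to 104788 over all 6 libraries with overlap. That gene was *Rec8*, a meiotic cohesin subunit, at 4185 and 2507 in wild type and 886 and 285 in *10xBulge*. Of 11 spermatogonial genes tested, 1 was higher and 1 lower, with *Nanos2* at 0 in N1, N4 and N6, and the sums of the 12 listed were 6133 to 12017 in the other genotypes and 17671 to 20131 in *10xBulge*. Genes of somatic cells were higher in *10xBulge*, with 6 of 10 for Sertoli cells, 6 of 8 for Leydig cells and 5 of 6 for macrophages past the threshold. The part of these markers in the kinesin results was not tested.

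Library N5 was above N6 for the summed markers of every cell type list. Its total of normalized counts over all genes was higher too, at 50081041 against 39754103. Sertoli markers summed to 60965 to 88786 in wild type and *10xPerf*, 285957 in N5 and 137825 in N6. Leydig markers summed to 46320.1 to 81422, then 302022 and 146786, and macrophage markers to 3305 to 5599, then 12689 and 8229. Of the 37 kinesin genes tested, 23 were higher in N5 than in N6, among them *Kif17* and *Kif2b*, and 7 had their highest value of all libraries in N5 (*Kif13a*, *Kif13b*, *Kif1c*, *Kif22*, *Kif26a*, *Kif3c* and *Kif7*). Of the 23614 genes tested with known GC content, 13399 were higher in N5 than in N6. The difference between N5 and N6 varied with GC content, as given above. Of the 6 endothelial and peritubular genes 0 passed against wild type in limma, also at an unadjusted p under 0.05 (sums of 5309 to 8298, then 10602 and 7649). Neuron markers were checked because *Kif5a*, *Kif5c*, *Kif1a* and *Kif21b* are known from neurons. *Snap25* was between 0 and 15.6 and *Syt1* between 29.0 and 111 in all libraries, *Rbfox3* between 11.0 and 77.4, and *Map2*, which the testis also expresses, was the 1 of the 4 tested that passed against wild type and fell from 1926 and 3450.4 to 92.2 and 125. *Tubb3*, the most abundant of the 5 in *10xBulge*, read 2995 and 1838 in N1 and N2, 1588 and 2384 in N3 and N4 and 7355 and 3528 in N5 and N6 (1.12 ± 0.49 against wild type, adjusted p = 0.126, and 1.39 ± 0.49 against *10xPerf*, adjusted p = 0.0626). Between the lines 2 of the 4 tested were higher and 2 lower.

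The 24 kinesin genes that passed in no comparison covered all 3 roles, with 8 in each. Against wild type their log2 fold changes in *10xBulge* lay between -1.07 (*Kif18b*) and 0.65 (*Kif4*) for spindle, -0.91 (*Kif19a*) and 1.25 (*Kif3c*) for flagellar, and -1.44 (*Kif1a*) and 0.99 (*Kif13b*) for transport kinesins. Over all 3 comparisons their standard errors were 0.38 to 0.60, so that with 2 libraries a genotype changes of about 2-fold would mostly be missed. In *10xPerf* against wild type these genes lay between -1.03 (*Kif1a*) and 1.64 (*Kif5a*). *Kif7*, a regulator of Hedgehog signalling in cilia, had 162 and 206 normalized counts in the wild-type libraries and 308 and 123 in those of *10xBulge*. *Kif20a* had 2360.3 and 5103 against 5518 and 3456, and *Kif14* 549.5 and 843 against 429 and 481. *Kif19b*, at 14.8 to 25.4 in all libraries, had the lowest mean of the genes tested.

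On GRCm38, 3 of the 13 genes that passed anywhere share exon sequence with another gene on the same strand, and 5 with a gene on the opposite strand. *Kif17* (chr4:138250435-138301967, plus strand) shares with *Sh2d5*, which had 62.4 to 99.5 normalized counts in wild type and *10xPerf* and 169 and 90.4 in *10xBulge*. *Kif1c* and *Kif27* share with microRNA genes. *Kif18a*, *Kif2a*, *Kif22*, *Kif26b* and *Kif27* have antisense neighbours, and the libraries were made with a kit that keeps the strand, with the library type detected automatically in counting. *Kif2b* (chr11:91575315-91577558, minus strand), *Kif2c*, *Kif5c* and *Kif9* overlap no annotated exon of another gene.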

How the data were processed

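Total RNA of whole adult testes was depleted of ribosomal RNA and sequenced as single reads, with 2 mice for each of 3 genotypes. The authors quantified transcripts with salmon on GRCm39 with Ensembl annotation and its GC correction, and deposited normalized counts per gene from DESeq2, a signal that is not whole reads. The authors also deposited log2 fold changes and adjusted p-values of their comparisons and a mean over all libraries, which were not used. All columns of library values were matched to a sample.

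The 23782 genes that reached 10 in 2 or more libraries were fitted as log2(value + 1), with a term per genotype over all 6 libraries and a mean-variance trend (R 4.3.3, limma 3.58.1). Tests were two-sided, adjusted by the Benjamini-Hochberg method over all genes tested, with 0.1 as threshold. An exact permutation test of 2 libraries against 2 cannot go below p = 0.333. The labels give each library a mouse of its own. The spread behind the p-values thus holds differences between mice and between library preparations, which cannot be told apart. It was pooled over the 3 genotypes and moderated by the mean-variance trend. Confidence intervals are those of the fit, and the worth of 3 reads covers counting error only.

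The members, roles, partner lists and marker lists were chosen with earlier results of these data known. Named are members past the threshold in any comparison, members that moved against their role group, and the 2 or 3 genes of a list with the smallest p in a direction. *Kif3a*, *Kif3b*, *Kif5b*, *Kif11*, *Kif23*, *Kif24*, *Kif7*, *Kif20a*, *Kif14* and the pairs for the ratios were picked afterwards as relatives or examples. Levels per kb use the longest GENCODE transcript on GRCm38, and coordinates are of GRCm38, not the build of the counts. Promoter windows are from RefSeq (GRCm38.p6). No windows were used for *Kif5b*, *Kif20a*, *Kif21b*, *Kif5a*, *Kif13b*, *Kif19a*, *Kif28* and *Kif19b*. Alternatives were scaling by library totals or upper quartile, other filters, pseudocounts of 0.1 and 10, only the genotypes compared, no trend, an adjusted p under 0.05, at least a 2-fold change, leaving out each library and, chosen after seeing the data, removing the GC trend of each library by loess (span 0.3). Python 3.11.15, pandas 2.3.3 and matplotlib 3.10.9 made the tables and figures.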

Additional observations from a re-analysis of the deposited data

How the results depend on the processing

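*Kif17*, *Kif2b*, *Kif2c*, *Kif27* and *Kif5c* were lower in *10xBulge* than in wild type and in *10xPerf* and past the threshold in all 9 alternative fits and all 6 fits without a library. The count of 7 kinesin genes lower against wild type was 5 (without N1) to 10 (without N5) without a library, and 10 with the upper quartile or with the GC trend removed, each time adding *Kif18b*, *Kif1a* and *Kif9*. The single higher gene became 6 with library totals (adding *Kif13b*, *Kif1c*, *Kif26a*, *Kif3c* and *Kif5a*), 2 with at least 10 in every library, 2 with a pseudocount of 10 and 3 with the GC trend removed. It became 0 with only the 2 genotypes compared, a pseudocount of 0.1, no trend or an adjusted p under 0.05, and 0 to 4 without a library (4 without N6). Library totals moved the median of all genes tested to 0.35 against wild type, 0.15 in *10xPerf* and 0.17 between the lines, and the upper quartile to -0.16 and -0.18 for *10xBulge*. Relative to that shift the flagellar median of 0.035 with library totals stayed below all genes. With a filter of at least 1 in 1 library, *Kif28* passed and *Kif22* did not. *Kif21b* missed against wild type with only the 2 genotypes compared.

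The gene higher in *10xPerf* (*Kif5c*) became 0 with library totals, the upper quartile, a pseudocount of 0.1, no trend or an adjusted p under 0.05, and 0 to 1 without a library. The spindle median of 0.59 there was 0.081 to 1.00 without a library, the lowest without N1. *Kif17* in *10xPerf* turned from -0.33 to 0.12 with the GC trend removed and ranged from -0.76 to 0.11 without a library, and *Kif26b* from -0.29 to 0.66. Between the lines, the 2 higher genes became 1 with only those genotypes, 0 with an adjusted p under 0.05 and 0 to 4 without a library, and the 10 lower became 6 to 11 (6 without N3 or N4). *Kif18a* and *Kif2a* missed there under both of library totals and removal of the GC trend. The flagellar median of -0.63 was -0.85 to -0.23 without a library, -0.23 without N6. *Kif22* between the lines turned from -0.02 to 0.23 (library totals) and 0.053 (no GC trend), and was -0.87 to 0.82 without a library. The cause of these shifts was not tested. No paired analysis was possible because the libraries are numbered N1 to N6 without shared numbers and come from different mice. With 2 mice a genotype, changes of about 2-fold are mostly undetectable.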
